A study of Livoneca redmanii with 3 samples.

Results

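Translation factors are the soluble proteins that help the ribosome start, extend and end a protein chain. Their transcripts were examined here in Livoneca redmanii, a crustacean parasite of fish from the isopod family Cymothoidae. They were chosen from the deposited count table by annotation alone: a name that begins with EIF, EEF, ETF1 or TUFM, the name EF1a-F2, or a description that mentions a translation initiation factor, a translation elongation factor or elongation factor Tu. Contigs named EFTUD1 and contigs described as reverse transcriptase or ribonuclease H were left out. The rule found 104 of the 31922 distinct assembled transcripts, in 55 assembled genes. Of these, 98 matched by name and 6 by description only. RNA came from whole parasites off Tilapia zilli hosts of Lake Qarun, and each condition had 1 library. The low-temperature treatment took animals down to 10 °C, the low-salinity treatment lowered salinity gradually to 8 PSU, and the control was held at 35 PSU with 26 °C. Salinity in the low-temperature treatment, temperature in the low-salinity treatment, and the number, sex and age of the specimens per library are not stated in the labels. With 1 library per condition there is no replicate check, so no test was made, and every interval below covers counting error only.

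In eukaryotes, initiation factors load the initiator tRNA onto the small ribosomal subunit, bring it to the capped end of the mRNA and help it find the start codon. Elongation factor EF1A then delivers each aminoacyl-tRNA, the EF1B complex recharges EF1A with GTP, and EEF2 moves the ribosome along by a codon. Because growing cells need such factors, most of their transcripts are found widely across tissues, and EF1A mRNA is usually abundant in animal tissues.

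Translation factor transcripts were found almost entirely in the low-temperature library. All 104 had a count there, with a sum of 18483 counts, a median of 76 and a range of 5 to 2062. In low salinity 1 of the 104 had a count, with a sum of 1, and in control 3 had a count, with a sum of 4. No transcript exceeded 2 counts outside the low-temperature library. In unscaled counts the lowest member in low temperature, with 5, stood above the highest in either other library. Members are not replicates of a condition, and the share of all transcripts separated in this way was not computed. Counts in low temperature alone were seen for 100 of the 104 members (96.2%), against 40.8% of all transcripts and 79.4% of the other annotated transcripts without mobile-element text (words such as reverse transcriptase, integrase or transposase in the description).

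**Figure D1:**
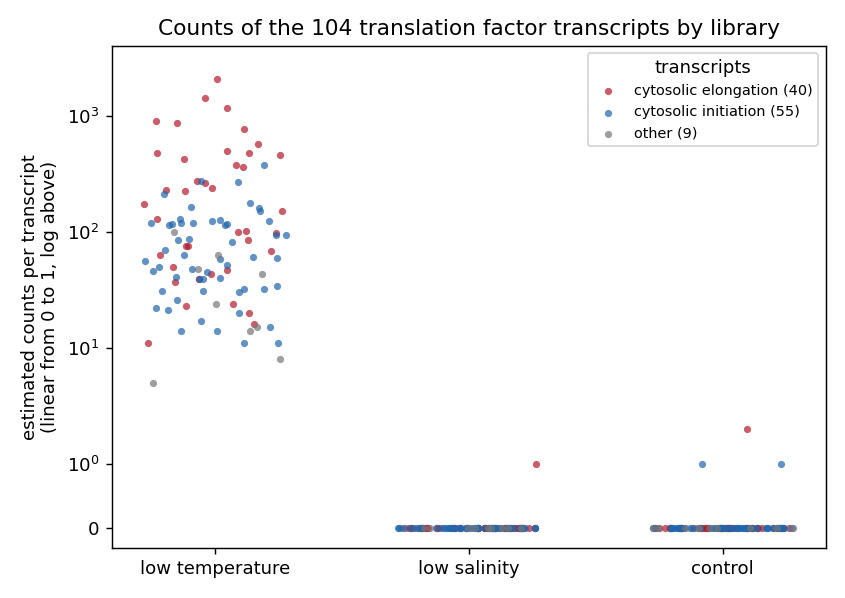
Estimated counts (vertical axis, linear from 0 to 1 and logarithmic above) of the 104 translation factor transcripts in the low-temperature, low-salinity and control libraries, 1 point per transcript, coloured by class. Points in low temperature lie between 5 and 2062 counts, and the others lie at 0 apart from 1 point in low salinity and 3 in control.

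The libraries also differed in what else they held. They summed to 2782324 counts in low temperature, 1434390 in low salinity and 2142836 in control. Of the counts of each library, transcripts with mobile-element text took 4.63% in low temperature, 55.0% in low salinity and 48.4% in control. In the same order, transcripts without annotation took 79.0%, 34.6% and 40.7%. Annotated transcripts without mobile-element text took 16.4%, 10.4% and 11.0%. Marker transcripts of muscle, hemolymph and yolk were also counted almost only in low temperature. Of the other annotated transcripts without mobile-element text, 79.4% were counted in low temperature alone. Transcripts of myosin heavy chain, troponin and tropomyosin (42) summed to 8831 counts in low temperature, 3 in low salinity and 3 in control. Transcripts of hemocyanin, the blood oxygen carrier, numbered 11 and summed to 12546 counts in low temperature, 3 in low salinity and 7 in control. Those of vitellogenin, the yolk precursor, numbered 7 and summed to 13103 in low temperature, 2 in low salinity and 0 in control. Although all libraries are labelled as whole organism, muscle, hemolymph and yolk markers were at or near 0 in low salinity and control. Text terms for hemoglobin, keratin and type I collagen of the fish host matched 0 transcripts. The part of library composition in the differences between libraries was not tested, and in whole animals fewer cells of a type and less RNA per cell cannot be told apart. Nor can either be told apart here from a property of the libraries themselves or of the deposited quantification.

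Within the low-temperature library the cytosolic elongation factors took most of the members' counts. Their 40 transcripts held 13490 counts, 73.0% of the members' sum (exact binomial 95% interval 72.3% to 73.6%), and the 55 transcripts of cytosolic initiation factors held 4674, or 25.3% (24.7% to 25.9%). The classes were pooled from roles given by gene name. The elongation class includes EIF5A, with 138 counts. The initiation class includes EIF4A3, with 111 counts, and EIF6, with 93. All 3 are described below. Outside low temperature the elongation factors had 1 count in low salinity and 2 in control. The initiation factors had 0 in low salinity and 2 in control. Counts were concentrated in few contigs, and the 10 most abundant transcripts held 49.8% of the sum. Transcript lengths are not part of the tables used here, so counts of different genes are read numbers and not levels per length.

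**Figure D2:**
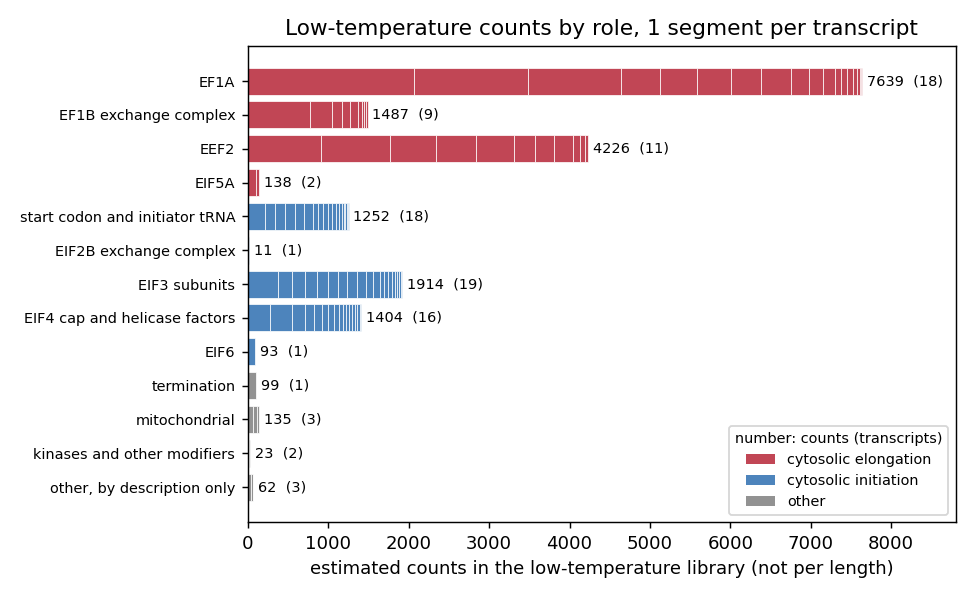
Estimated counts in the low-temperature library (horizontal axis, not corrected for length) summed by role, with 1 bar segment per transcript and the sum and number of transcripts beside each bar. EF1A and EEF2 are the longest bars, with 7639 and 4226 counts.

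EF1A, the factor that carries aminoacyl-tRNA to the ribosome, had the highest sum of any role. Its 18 transcripts held 7639 counts in low temperature, 0 in low salinity and 2 in control. They are named EF1a-F2, EEF1A1 or EEF1A2, and 12 of them are contigs of 1 assembled gene, TRINITY_DN56_c0_g1. The most abundant, EF1a-F2 (TRINITY_DN56_c0_g1_i23), stood at 2062 counts in low temperature, with an exact Poisson 95% interval of 1974 to 2153, and at 0 in low salinity and control. Next came EEF1A2 (TRINITY_DN56_c0_g1_i11) with 1416 counts and a contig whose listings carry all of these names (TRINITY_DN56_c0_g1_i25) with 1164, both at 0 in the other libraries. Only the fourth, EF1a-F2 (TRINITY_DN56_c0_g1_i10), had a count elsewhere: 478 in low temperature, 0 in low salinity and 2 in control. Its ratio of low temperature to control was 711 after scaling (exact conditional 95% interval 196 to 5885). This scaling is TMM, a trimmed mean of ratios that sets the effective size of each library.

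The exchange complex that recharges EF1A with GTP was represented by its beta, delta and gamma subunits. In total its 9 transcripts had 1487 counts in low temperature, 1 in low salinity and 0 in control. The gamma subunit eef1g (TRINITY_DN199_c0_g1_i3) had 771 counts in low temperature (718 to 827) and 0 in both other libraries. A further eef1g contig (TRINITY_DN199_c0_g1_i2) had 130 counts in low temperature, and it carried the only count of any member in low salinity. The beta subunit EEF1B2 (TRINITY_DN41132_c0_g1_i5) had 273 counts and the delta subunit EEF1D (TRINITY_DN726_c0_g1_i4) had 99, both at 0 elsewhere. The assembled gene of EEF1B2 has 2 more contigs, named EFB1, with 50 and 23 counts, and they entered by description only.

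EEF2, the GTPase that translocates the ribosome, came from a single assembled gene. Its 11 contigs held 4226 counts in low temperature and 0 in both other libraries, the largest role with no count at all outside low temperature. Single contigs ranged from 39 to 907 counts with a median of 262. The most abundant were TRINITY_DN96_c0_g1_i1 with 907 counts (849 to 968) and TRINITY_DN96_c0_g1_i2 with 862 (805 to 922), followed by TRINITY_DN96_c0_g1_i17 with 569 and TRINITY_DN96_c0_g1_i14 with 495. EEF2K, the kinase that phosphorylates and slows EEF2, had 15 and 8 counts in a pair of single-contig genes, and 0 elsewhere. EIF5A, the hypusine-carrying factor that relieves stalled ribosomes, had 101 and 37 counts in its 2 contigs and 0 elsewhere.

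Factors that place the initiator tRNA and choose the start codon made up 18 transcripts, with 1252 counts in low temperature, 0 in low salinity and 1 in control. EIF5B (TRINITY_DN750_c0_g1_i3), a GTPase of ribosomal subunit joining, had 213 counts in low temperature (185 to 244). EIF5 (TRINITY_DN873_c0_g1_i1), which stimulates GTP hydrolysis by EIF2, had 127, and eIF-1A (TRINITY_DN8802_c0_g1_i2), which binds near the decoding site, had 119. These 3 had no count in either other library. The GTPase EIF2, which carries the initiator tRNA, was present with all 3 of its subunits. Its gamma subunit EIF2S3 had 162 counts over 2 contigs, 123 of them in TRINITY_DN31150_c0_g1_i4, and its beta subunit EIF2S2 had 58. The alpha subunit EIF2S1 (TRINITY_DN41587_c1_g1_i1), whose phosphorylation lowers initiation under stress, had 32 counts in low temperature (21.9 to 45.2), 0 in low salinity and 1 in control. The 5 contigs of EIF1B, a start-codon fidelity factor, held 262 counts. EIF2A had 114 counts, and EIF2D, which can deliver tRNA to the ribosome without GTP, had 28 over 2 genes. Of the 5 subunits of EIF2B, the exchange factor of EIF2, the rule found 1, EIF2B5, with 11 counts.

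EIF3, the large scaffold of the initiation complex, was found with 13 of its 13 lettered subunits. Together its 19 transcripts held 1914 counts in low temperature, 0 in low salinity and 1 in control, and that count belonged to a minor contig of EIF3B. EIF3A (TRINITY_DN403_c0_g2_i3) had 375 counts in low temperature (338 to 415), and EIF3B had 279 over 6 contigs, of which the highest (TRINITY_DN40620_c0_g1_i10) had 151. EIF3L (TRINITY_DN62508_c0_g1_i2) followed with 178 and EIF3D (TRINITY_DN5938_c0_g1_i1), a subunit that can itself bind the mRNA cap, with 159. At the other end EIF3J had 45 (TRINITY_DN33902_c0_g1_i1) and EIF3K had 52 (TRINITY_DN18719_c0_g1_i1). The remaining 7 subunits had between 82 and 137 counts. Every subunit was at 0 in low salinity, and 12 of the 13 were at 0 in control.

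**Figure D3:**
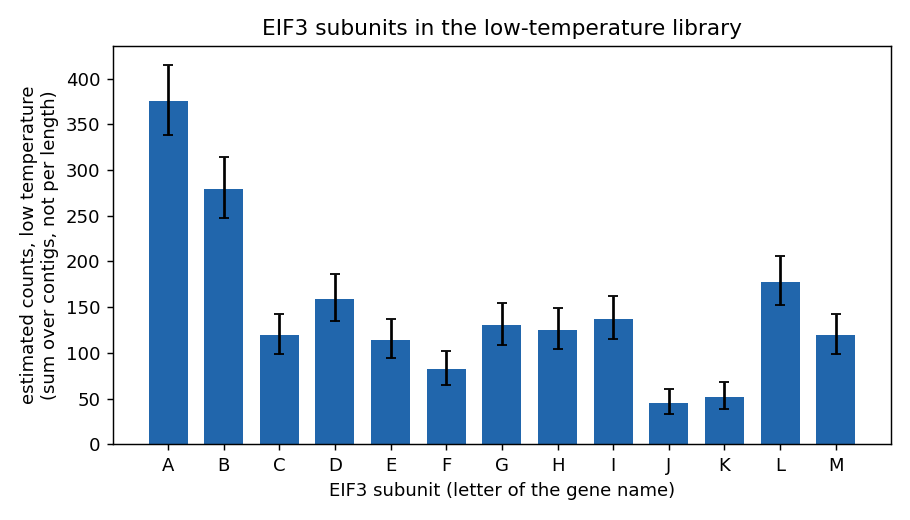
Estimated counts in the low-temperature library (vertical axis, summed over contigs and not corrected for length) of the 13 EIF3 subunits by the letter of the gene name. Bars give the sum and error bars its exact Poisson 95% interval, and they run from 45 counts for subunit J to 375 for subunit A.

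The factors of the mRNA cap had 1404 counts over 16 transcripts in low temperature and 0 in both other libraries. The RNA helicase named EIF4A2 or eIF-4a led them with 787 counts over the 6 contigs of 1 assembled gene, the highest of which (TRINITY_DN468_c0_g1_i13) had 276 (244 to 311) and the next (TRINITY_DN468_c0_g1_i17) 267. The scaffold proteins EIF4G2 (TRINITY_DN8195_c0_g1_i1) and EIF4G3 (TRINITY_DN53432_c0_g1_i1) had 163 and 117 counts. EIF4E (TRINITY_DN63454_c0_g1_i1) and EIF4E2 (TRINITY_DN41721_c0_g1_i1), which bind the cap, had 30 and 34. EIF4B, which stimulates EIF4A, had 131 over 3 contigs. EIF4A3, a helicase of the exon junction complex rather than of initiation, had 63 and 48 counts in 2 genes. EIF6, which keeps the ribosomal subunits apart, had 93 counts.

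The few remaining members were placed outside the classes of cytosolic initiation and elongation factors. ETF1, the release factor that reads stop codons, had 99 counts in low temperature and 0 elsewhere. The mitochondrial factors TUFM, in 2 genes, and MTIF2 had 63, 48 and 24 counts. HBS1L, a ribosome rescue GTPase that entered by its description, had 43. TRMT6 and WDR5 had 14 and 5 counts, and they also entered only through description text, although TRMT6 is known as a subunit of a tRNA methyltransferase and WDR5 as a WD40 scaffold of chromatin complexes. None of these transcripts had a count in low salinity or in control.

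Low temperature against control asks what differed between cooled animals and animals at 26 °C. Summed over the 104 members, 18483 counts in low temperature stood against 4 in control, a ratio of 13739 with TMM scaling (exact conditional 95% interval 5365 to 50430) and 3559 with total counts (1390 to 13063). For the other annotated transcripts without mobile-element text, 437524 counts in low temperature stood against 234913 in control. That is a ratio of 5.54 with TMM scaling and 1.43 with total counts. In control that sum came from 950 of the 5541 transcripts, and in low temperature from 5287. The ratio of sums therefore does not describe the typical transcript of that set. At their low-temperature share of total counts the members would have given 14235 counts in the control library. They took 0.664% of all low-temperature counts and 0.000187% of control counts. Among annotated transcripts without mobile-element text, they took 4.05% in low temperature and 0.0017% in control.

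Transcript by transcript, the members were compared by the log2 ratio of scaled CPM, and a transcript entered if its counts in the 3 libraries averaged 10 or more. Of the 104 members 84 entered, and in all 84 the ratio of low temperature to control was at least 2, where 49.6% of all 8563 tested transcripts were higher by this rule and 43% lower. This count is no evidence of its own: 81 of the 84 (96.4%, against 38.1% of all tested transcripts) were counted in no other library, passed the filter through low temperature and were higher by construction. The median log2 ratio of the 84 was 8.51, or 6.63 with transcripts at 0 set to 3 counts. Over all tested transcripts these medians were 0.83 and 0.89. Over the 2958 tested among the other annotated transcripts without mobile-element text they were 7.62 and 5.82, so high medians were not particular to the members. The lowest member to enter had 30 counts in low temperature and the highest left out had 26. The 20 members left out had 5 to 26 counts in low temperature and held 1.79% of the members' counts.

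For single members at 0 in control, only a lower bound of the fold can be given, against a floor of 3 counts per library. The floor is a set value, and the bounds leave out the counting error of the low-temperature count. EF1a-F2 (TRINITY_DN56_c0_g1_i23) was at least 2044-fold higher in low temperature, EEF2 (TRINITY_DN96_c0_g1_i1) at least 899-fold, eef1g (TRINITY_DN199_c0_g1_i3) at least 764-fold and EIF3A (TRINITY_DN403_c0_g2_i3) at least 372-fold. Another scaling moves all these bounds together, by -1.95 log2 units with total counts, -2.47 with upper-quartile scaling and 0.96 with median-of-ratios scaling. WDR5, with the fewest counts, had a bound of 4.96-fold that upper-quartile scaling takes below 1.

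Low salinity against control asks what differed between animals at 8 PSU and animals at 35 PSU. The members had almost no counts in either library. The members summed to 1 count in low salinity (exact Poisson 95% interval 0.0253 to 5.57) and 4 in control (1.09 to 10.2), a scaled ratio of 0.503 with an interval of 0.0102 to 5.09. At the low-temperature share of total counts the low-salinity library would have held 9529. The 4 members with any count were eef1g (TRINITY_DN199_c0_g1_i2), with 1 in low salinity and 0 in control, EF1a-F2 (TRINITY_DN56_c0_g1_i10), with 0 in low salinity and 2 in control, and EIF2S1 (TRINITY_DN41587_c1_g1_i1) and EIF3B (TRINITY_DN40620_c0_g1_i9), each with 0 in low salinity and 1 in control. All lie at or under the floor of 3 counts, so no fold is given, and a difference between these libraries was not detectable at this depth. By the size rule 1 of the 84 tested members was higher and 2 were lower, against 5.62% and 13.3% of all tested transcripts.

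Low salinity against low temperature gave 1 count in low salinity against 18483 in low temperature, a ratio of 3.66e-05 with TMM scaling (9.28e-07 to 0.000204) and 0.000105 with total counts (2.66e-06 to 0.000585). All 84 tested members were at least 2-fold lower in low salinity, where 49.9% of all tested transcripts were lower, and the filter fixed this direction as above. The comparisons share libraries, so they are not independent of one another.

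Other genes of the translation apparatus, from lists chosen by function, were also counted mostly in low temperature. Among the other annotated transcripts without mobile-element text 79.4% were counted there alone. By the size rule 49.6% of all tested transcripts were higher in low temperature than in control, and 2557 of the 2958 tested among those other annotated transcripts were. Aminoacyl-tRNA synthetases, which charge tRNAs, had 34 transcripts with 1795 counts in low temperature, 0 in low salinity and 0 in control, and all 16 tested were higher in low temperature than in control. Poly(A)-binding proteins, all named PABPC4, had 7 transcripts with 1953 counts in low temperature and 0 in both other libraries, and all 7 were higher by the size rule. The release and recycling factors GSPT1 and ABCE1 had 3 transcripts, all higher, with 265 counts in low temperature, 0 in low salinity and 1 in control. As with the members, these directions follow largely from the filter. Mitochondrial factors outside the rule, in 4 transcripts of which 1 was tested and higher, had 91 counts in low temperature and 0 elsewhere. The growth control genes MTOR, TSC2 and GCN1L1, also with 1 of 4 transcripts tested and higher, had 100 counts in low temperature, 0 in low salinity and 1 in control. DOHH, the enzyme that completes the hypusine of EIF5A, differed: its 3 transcripts had 32 counts in low temperature, 1 in low salinity and 3 in control, too few for any to be tested, and 1 of them had counts in low salinity and control but none in low temperature.

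The members differed in how many contigs the assembly gave them. Of the 55 genes, 40 had 1 member contig, and the other 15 shared 64 contigs. Contigs of a gene overlap in sequence to an unknown extent, so the split of counts among them is an estimate. EF1A and EEF2 had the most, 12 and 11, and the highest contig held 29.1% and 21.5% of the counts of its gene. For eef1g the highest of 3 contigs held 83.7%. The 55 genes also had 15 contigs that the rule did not take as members. These held 287 counts in low temperature, 2 in low salinity and 3 in control.

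The contig structure decides what the authors' normalized table shows for these genes, because that table has 1 transcript per gene. For 53 of the 55 genes this transcript was a member, and for 6 of the 15 genes with more than 1 contig it was the contig with the most counts. For the EF1A gene it was the contig with 478 of 7092 counts (6.74%), and for eef1g the contig with 20 of 921 (2.17%). For EEF2 it was the top contig, and its 907 counts, listed 2 times, entered as 1814. For EIF5A and the EEF1B2 gene it was a contig that is not a member, with 13 and 10 counts. In all, the 53 values rest on 29.7% of the members' low-temperature counts when each transcript is used once.

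**Figure D4:**
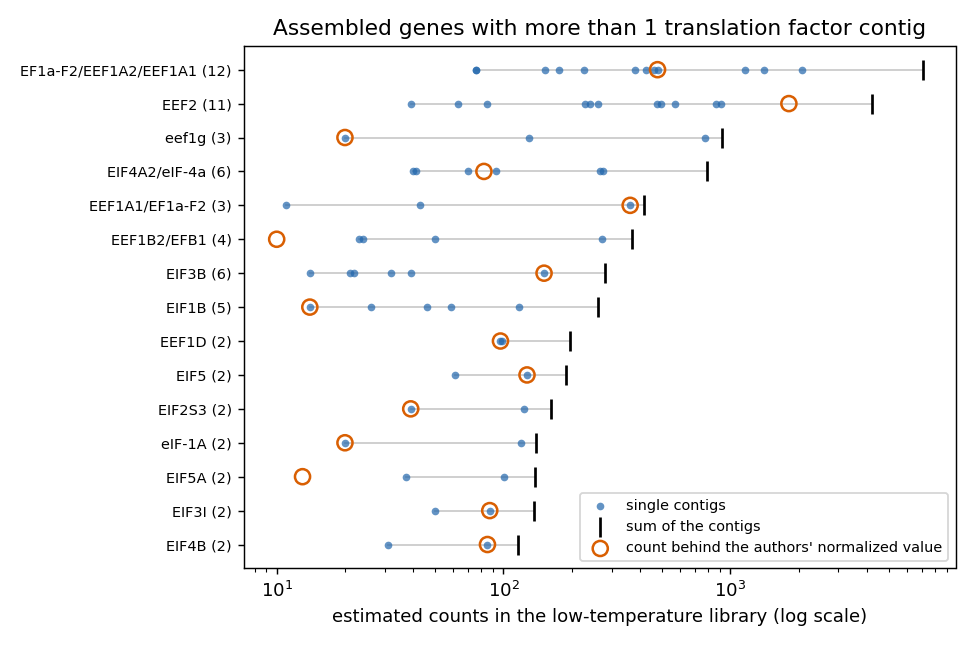
Estimated counts in the low-temperature library (horizontal axis, logarithmic) for the 15 assembled genes with more than 1 translation factor contig, with the number of contigs in brackets. Blue points are single contigs, black bars their sum and orange circles the count behind the value in the authors' normalized table, which for the EF1A gene is 478 against a sum of 7092.

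In the authors' deposited table for low temperature against control, all 53 members listed had a positive log2 fold change with an adjusted p below 0.05, where 55.8% of all listed genes did. The log2 fold changes there ran from 6.06 to 14.61 with a median of 9.77, and the largest adjusted p was 8.89e-05. EEF2 (TRINITY_DN96_c0_g1_i1) had a log2 fold change of 14.61 with a standard error of 1.44 in the authors' deposited table, and EF1a-F2 (TRINITY_DN56_c0_g1_i10) had 10.25 with 1.02. In the authors' deposited table for low salinity against control, 0 of the 53 had an adjusted p below 0.05, against 1.55% of genes higher and 1.33% lower, and 52 had a log2 fold change of 0. The authors' deposited table for low salinity against low temperature gave all 53 as lower with an adjusted p below 0.05, as for 56.2% of its genes. Since each condition had 1 library, these p-values do not rest on replicates.

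Besides names, the members share a functional class and differ in their nearest annotated proteins. COG category J, translation, was given to 87 of the 104, with 93.0% of the counts. Category A, RNA processing, was given to 12, of which 11 were in the cap group and 1 was an EIF3B contig. The table also names for each listing a seed ortholog, a protein of another species, which does not give the species the RNA came from. For 58 members every seed ortholog was from an arthropod, with 9002 low-temperature counts, for 22 all were from other vertebrates or from a mix of vertebrate groups, with 4088, and for 4 all were from ray-finned fish, with 2575. A further 11 had seeds from other organisms only, with 673 counts, and 9 had a mixture, with 2145.

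EEF2 and EF1A, the roles with the most counts, differed in this. All 11 EEF2 contigs had seeds from insects only. Of the 18 EF1A contigs 2 had seeds from arthropods only, and 11 had at least 1 ray-finned fish seed. Those 11 held 5225 counts in low temperature, 68.4% of the role. In a single listing the seed was a protein of the Nile tilapia, on a contig (TRINITY_DN56_c0_g1_i16) that had 380 counts in low temperature and none elsewhere. A pair of single EEF1A1 contigs with seeds from the blood fluke Schistosoma mansoni had 68 and 16 counts. Only 1 member outside EF1A, a minor EEF1B2 contig with 24 counts, had a ray-finned fish seed.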

How the data were processed

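RNA from whole animals was sequenced in 3 libraries, 1 per condition. Per the labels' protocols, TRIzol RNA was fragmented with RNase III, ligated, amplified and sequenced on an Ion Torrent S5. The tools listed in the submitters' processing notes are Salmon 1.10.2, fastp 0.23.2 and FastQC 0.11.9. Assembly and annotation software and any genome build were not given in the sources used here. Estimated counts were deposited by transcript, as whole numbers, in 33093 rows for 31922 distinct transcripts; each transcript was used once. The authors also deposited a normalized signal per gene, which is counts times 1 factor per library: dividing by 2.49, 0.850 and 0.431 (low temperature, low salinity, control) gave whole numbers for 100% of values within 0.01. The deposited comparison tables hold, per the file headers, a mean score, log2 fold changes, a statistic score, p-values and adjusted p-values.

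Log2 ratios of CPM used edgeR 4.0.16 in R 4.3.3 with a prior count of 0.5 and TMM factors of 0.449, 1.29 and 1.73 over all transcripts. The size rule asks for a log2 ratio of 1 or more in either direction. Intervals are exact Poisson, exact conditional binomial or exact binomial (Clopper-Pearson) at 95%; amplified reads are not independent molecules, so they cover counting error only. Named are the 4 transcripts of each role with the most counts, every member with more than 3 counts in low salinity or control (0 met this), and others as counts; the members with 1 or 2 counts there, the subunits given by sum, the minor contigs and the other pathway genes named were chosen after their values were seen. The members, roles and lists were chosen with earlier results of these data known. Ratios were tested on simulated data in which few transcripts changed, with equal numbers up and down. That setting does not cover libraries that differ as widely as these. The files hold no sequences or coordinates. Alternatives were other scalings, priors, filters, sums per gene, members by name only and the authors' normalized table.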

Additional observations from a re-analysis of the deposited data

How the results depend on the processing

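For low temperature against control every tested member was at least 2-fold higher, with 0 lower, under total counts, median-of-ratios and upper-quartile scaling, a prior count of 2, no filter, and TMM factors from the tested transcripts, the last chosen after the data were seen. Of the 84 members tested 81 were counted in low temperature alone, so their direction was fixed and no scaling could turn it. The number of members tested changed the count, since fewer features entered. Higher in low temperature than in control were 29 when counts had to average 50 or more and 49 in the authors' normalized table. With counts summed per assembled gene, contigs that are not members included, 45 were higher. Equally many were lower in low salinity than in low temperature. For low salinity against control the members hold 5 counts in all, and 1 was higher and 2 lower as reported. With a prior count of 2 these were 0 and 0, and when counts averaged 50 or more 0 and 1. They were 0 and 1 in the authors' normalized table, and 2 and 4 per gene. The sums per gene also hold contigs that are not members, with 2 counts in low salinity and 3 in control. The cause of these changes was not tested. The share of low-temperature counts was 1.13% when repeated rows were counted as often as listed, and 0.652% with only the members past the filter. The median log2 ratio of low temperature to control was lowest, 6.52, with a prior count of 2 and highest, 9.97, when counts averaged 50 or more. For 32 tested transcripts, the 4 highest of each role and those with a count outside low temperature, the log2 ratio lay between 3.60 (EIF2S1, upper-quartile scaling) and 14.32 (EF1a-F2, TMM factors from the tested transcripts) over the scalings and priors run. No paired analysis was possible because each condition has 1 library. Depth limits low salinity and control: a transcript at 0 there allows up to 3 counts, which is 1.63 and 0.808 scaled CPM.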

Other observations

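Contigs named EFTUD1, a GTPase of large-subunit maturation, were outside the rule. The 6 transcripts with that name summed to 255 counts in low temperature, 2449 in low salinity and 8506 in control. With TMM scaling all 5 that passed the mean-count filter were at least 2-fold lower in low temperature than in control, where 43% of all tested transcripts were. These 5 are contigs of 1 assembled gene and are described as elongation factor Tu, most of them also as RNase H. RNase H is among the words taken as mobile-element text. Of the 715 tested transcripts with such text, 527 were lower by the same rule, so this direction was not particular to EFTUD1.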
